A study of Homo sapiens with 54 samples.

Results

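Compound kushen injection (CKI) is an injectable extract made from 2 medicinal plants, and N-OmtOspc is CKI from which 2 of its alkaloids, oxymatrine (Omt) and oxysophocarpine (Ospc), were removed. This account covers the 3 libraries of MDA-MB-231 cells treated with N-OmtOspc for 24 h and the 3 untreated libraries of the same time and batch, chosen by their treatment, time and batch labels, which makes 6 of the 54 libraries of the series. MDA-MB-231 is an established triple-negative human breast cancer cell line with a mesenchymal appearance, and a single line carries no information on how other lines respond. All cells grew in Dulbecco's Modified Eagle's Medium with 10% fetal bovine serum. The untreated cells received no CKI or fraction, and the treated cells received the mixture at the amount equivalent to 2 mg/ml of CKI. For comparison, 3 further groups of the same batch and time were used, with 3 libraries each. These were whole CKI at 2 mg/ml, N-MacOmtOspc, which lacks macrozamin (Mac) as well as both alkaloids, and OmtOspc, which holds both alkaloids alone. N-OmtOspc and untreated libraries at 48 h of the same batch, 3 of each, gave the later time point. The design text calls the 3 libraries of a group biological replicates without saying whether they were separate cultures on separate days, so the p-values measure the spread between these libraries only.

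Several stress programmes with known regulators frame the measurements. Unfolded protein in the cytosol releases HSF1, which drives genes of the HSP70 and HSP40 chaperones. Oxidants and electrophiles stabilise NRF2, which drives haem oxygenase, the aldo-keto reductases and the enzymes of glutathione synthesis, while excess zinc or other metal ions act through MTF1 on the metallothioneins and the zinc exporter SLC30A1. ATF4 and its partner CHOP raise genes of amino acid supply when translation initiation is slowed, and planar aromatic compounds bind the aryl hydrocarbon receptor AHR, which drives CYP1A1. Cells that leave the division cycle lose both the E2F-driven genes of DNA replication and the mitotic genes that share the CHR promoter element.

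The 6 promoters printed here belong to genes that stood for the chaperone, metal, AHR and mitotic groups. Each run is the 250 bases upstream of the annotated start in RefSeq GRCh38.p14, read 5′ to 3′ on the gene's own strand, with motif matches in capitals. The deposited counts used hg19, so these positions locate the genes only in the newer build.
HSPA6, chromosome 1, chr1:161524290-161524539, plus strand: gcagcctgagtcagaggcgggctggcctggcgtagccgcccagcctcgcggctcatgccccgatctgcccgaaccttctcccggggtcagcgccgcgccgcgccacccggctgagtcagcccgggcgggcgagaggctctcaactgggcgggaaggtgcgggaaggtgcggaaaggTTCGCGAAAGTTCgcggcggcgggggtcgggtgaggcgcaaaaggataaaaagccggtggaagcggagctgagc
MT1X, chromosome 16, chr16:56682220-56682469, plus strand: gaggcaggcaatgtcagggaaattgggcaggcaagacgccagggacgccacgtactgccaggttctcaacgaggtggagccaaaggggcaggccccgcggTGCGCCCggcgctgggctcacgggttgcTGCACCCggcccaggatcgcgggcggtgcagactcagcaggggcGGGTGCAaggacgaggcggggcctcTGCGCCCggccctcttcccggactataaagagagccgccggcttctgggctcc
SLC30A1, chromosome 1, chr1:211579162-211579411, minus strand: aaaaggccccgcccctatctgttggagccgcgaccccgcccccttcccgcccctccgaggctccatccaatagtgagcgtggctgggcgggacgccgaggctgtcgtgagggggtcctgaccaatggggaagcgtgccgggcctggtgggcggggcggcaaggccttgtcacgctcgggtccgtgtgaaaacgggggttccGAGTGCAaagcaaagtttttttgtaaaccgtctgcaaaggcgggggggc
CYP1A1, chromosome 15, chr15:74725529-74725778, minus strand: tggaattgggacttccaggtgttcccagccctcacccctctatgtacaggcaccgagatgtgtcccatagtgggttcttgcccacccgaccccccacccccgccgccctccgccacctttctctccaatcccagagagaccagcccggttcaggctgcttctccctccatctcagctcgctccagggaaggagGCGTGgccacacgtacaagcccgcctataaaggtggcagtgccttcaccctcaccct
CCNB2, chromosome 15, chr15:59104896-59105145, plus strand: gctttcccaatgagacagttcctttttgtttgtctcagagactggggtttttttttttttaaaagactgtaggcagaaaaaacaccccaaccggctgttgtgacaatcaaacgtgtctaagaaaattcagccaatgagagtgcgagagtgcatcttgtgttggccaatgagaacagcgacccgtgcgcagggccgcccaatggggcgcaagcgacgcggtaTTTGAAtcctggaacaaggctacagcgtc
PLK1, chromosome 16, chr16:23678639-23678888, plus strand: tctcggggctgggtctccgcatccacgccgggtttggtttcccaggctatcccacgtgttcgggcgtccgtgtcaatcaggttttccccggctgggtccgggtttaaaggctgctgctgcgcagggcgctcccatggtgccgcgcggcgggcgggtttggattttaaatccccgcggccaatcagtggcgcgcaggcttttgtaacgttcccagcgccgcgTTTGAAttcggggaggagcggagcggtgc

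Both strands were searched for each motif, and a match describes letters and not a bound site. The heat shock element was searched as GAANNTTCNNGAA, which 0.439% of 27305 promoters held. Of 12 tested heat shock genes, HSPA6 and HSPA8 held it, and the match of HSPA6 began 74 bases before the start. The metal response element, TGCACNC or TGCGCNC, stood in 24.7% of all promoters, 4 times in MT1X and once in SLC30A1. MT1X, MT2A and SLC30A1 were the members of the metal list with a promoter in the table, and all 3 held it. The core of the dioxin response element, GCGTG, was found in 31.9% of promoters and in 3 of 4 genes of the AHR list, among them CYP1A1 at 57 bases before its start. The cell cycle homology region, TTTGAA or TTCGAA, stood in 14.6% of promoters and in 12 of 23 mitotic genes. CCNB2 and PLK1 each carried it 29 bases before the start. The antioxidant response element, TGACNNNGC, was present in 11% of promoters and in 4 of 14 NRF2 targets, namely GCLM, TXNRD1, PGD and ME1.

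The 54 libraries held 17673537 to 26138924 gene counts, and the 6 libraries in question 18649291 to 24122549. Levels are given as CPM, the read count of a gene relative to its library total after TMM scaling in edgeR, brought to a common library size. Differentially expressed (DE) genes were those with an adjusted p under 0.05, the adjustment being Benjamini-Hochberg across every gene that entered the fit, and fold changes are given as log2. Markers of the line were present in every library, and their summed level was 4250 to 4390 CPM in untreated and 2910 to 4130 CPM in N-OmtOspc libraries. ESR1, the oestrogen receptor, had no counts in any N-OmtOspc library, and PGR was too low to test. N-OmtOspc replicate 3 stood apart from the other two replicates, with 1239 genes over 2-fold from their level, against 467 and 672 for replicates 1 and 2. The mitochondrial ribosomal RNA RNR2 took 0.331 to 0.399% of the counts in untreated libraries and 4.27, 5.55 and 1.51% in N-OmtOspc replicates 1 to 3. In bulk RNA, fewer cells of a kind and less RNA per cell cannot be told apart.

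N-OmtOspc at 24 h changed most of the measured transcriptome. The stress genes HSPA6 (a chaperone), HMOX1 (haem oxygenase) and MT1X (a metallothionein) were higher in all 3 treated libraries, and the E2F-driven genes CDCA7, CCNE2 and E2F8 had the 3 largest falls once genes averaging under 10 CPM were set aside. Of 14390 genes tested, 9608 were DE (66.8%), 4750 higher (33%) and 4858 lower (33.8%). A change of at least 2-fold was reached by 4814 of them (33.5%), 2484 higher (17.3%) and 2330 lower (16.2%), and the groups did not overlap for 10364 genes (72%). Scaled by library totals alone, the median gene stood at -0.319 in place of -0.0178, and the split became 3410 higher and 6501 lower. The count of each gene list is therefore to be read against these shares of all genes.

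The gene with the largest rise at a mean of at least 10 CPM was PRSS35, a serine protease-like secreted protein. It measured 0.269, 0.414 and 0.529 CPM in the untreated and 66.7, 61.2 and 68.4 CPM in the N-OmtOspc libraries (log2 fold change 7.29, SE 0.19, adjusted p = 5.4e-07 by edgeR's quasi-likelihood test). ARC, an immediate-early gene known from neurons, came next with 0.431, 0.373 and 0.662 against 65.2, 38.3 and 99.8 CPM (log2 fold change 7.10, SE 0.46). Both genes were under 1 CPM in every untreated library and above 38 CPM in every treated one. CREB3L3, an ER-anchored transcription factor of liver, rose from 0.0539, 0.373 and 0.485 to 24.9, 23.9 and 29.9 CPM. The Notch-pathway repressor HES7 rose by 5.72 and the betaine transporter SLC6A12 by 5.29 on the log2 scale. RPPH1, the RNA subunit of RNase P, was also among the 12, but its N-OmtOspc values of 93.9, 129 and 23.7 CPM spread widely and the lowest was replicate 3. C11orf86 (5.68), C7orf61 (4.97), the cytokine IL1B (4.98) and the adaptor NYAP1 (4.88) completed the group with HSPA6 and HMOX1.

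CDCA7, an E2F and MYC responsive gene, had the largest fall at the same minimum level. Its 24.7, 22.0 and 23.5 CPM in untreated libraries became 0.484, 0.915 and 0.785 CPM (log2 fold change -4.99, SE 0.19, adjusted p = 1.06e-06 by edgeR's quasi-likelihood test). CCNE2, which encodes cyclin E2 of the G1 to S transition, fell from 22.4, 23.0 and 22.3 to 1.88, 0.523 and 0.785 CPM (log2 fold change -4.40, SE 0.31). E2F8, a repressor of the E2F family, fell from 23.2, 25.2 and 27.5 to 1.69, 1.96 and 1.62 CPM (log2 fold change -3.85, SE 0.15). The 2 groups lay far apart for all 3 genes. Division genes made up much of the rest of the 12, with DEPDC1 (-3.46), the recombination factor RAD51AP1 (-3.40), FAM111B (-3.31), the kinetochore motor CENPE (-3.29) and the cytokinesis kinase CIT (-3.29). Outside division stood the adaptor SORBS2 (-3.75), the ribosome assembly factor UTP20 (-3.71) and the galectin LGALS12 (-3.44).

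**Figure D1:**
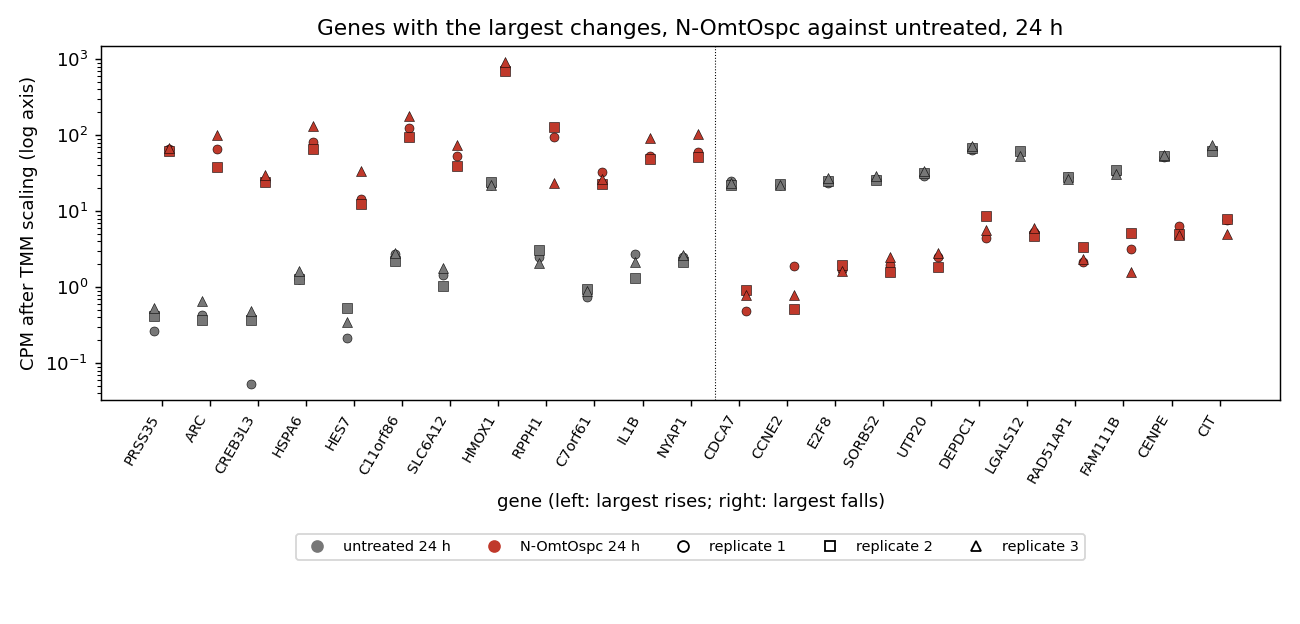
CPM on a log axis for the 12 genes with the largest rise and 11 of the 12 with the largest fall at a mean of at least 10 CPM, 1 point per library, untreated in grey and N-OmtOspc at 24 h in red. The 3 red points lie to one side of the 3 grey points for every gene shown, as the rule for choosing these genes required.

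Of 12 heat shock genes, 7 were higher and 1 lower, with a median of 0.645. HSPA6, an HSP70 that unstressed cells barely express, measured 1.29, 1.28 and 1.63 CPM untreated and 81.0, 65.6 and 132 CPM with N-OmtOspc (log2 fold change 6.04, SE 0.32, adjusted p = 2.22e-06 by edgeR's quasi-likelihood test). HSPA1A, the stress-inducible HSP70, stood at 303, 287 and 294 CPM and 3826, 3453 and 3737 CPM (log2 fold change 3.64, SE 0.12). Its near-identical copy HSPA1B changed by 3.66, and reads shared between these copies leave their separate values uncertain. HSPH1, an HSP110 exchange factor, rose from 116 ± 4.93 to 547 ± 99.8 CPM (SD, n = 3), and the HSP40 DNAJB1 rose by 1.73. The constitutive chaperones HSP90AA1, HSP90AB1, HSPB1 and HSPD1 did not pass the test. On library totals the list counted 6 higher and 4 lower, and without N-OmtOspc replicate 3 it counted 7 and 2.

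All 5 tested members of the metal list were higher, with a median of 2.79. MT1X, a zinc-binding metallothionein, measured 35.9, 35.2 and 28.5 CPM untreated and 636, 642 and 764 CPM treated (log2 fold change 4.36, SE 0.15, adjusted p = 7.7e-07 by edgeR's quasi-likelihood test). The zinc exporter SLC30A1 went from 22.8, 26.4 and 29.3 to 186, 179 and 177 CPM (log2 fold change 2.79, SE 0.12). MT1E rose by 3.08 and MT1F by 2.41. MT2A, the most abundant of them, held 615, 605 and 492 CPM before and 940.1, 734 and 2978 CPM after treatment (log2 fold change 1.45, SE 0.47). For MT2A the treated libraries differed among themselves, replicate 3 being far above the other two. Metallothioneins share much of their sequence, so single members are less certain than the family. MT1G, MT1H and MT1M were too low to test.

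NRF2 targets were mostly higher, 16 of 19 against 1 lower, with a median of 1.25. HMOX1, which degrades haem, was at 22.0, 24.4 and 21.8 CPM in untreated and 768, 696 and 917 CPM in N-OmtOspc libraries (log2 fold change 5.13, SE 0.15, adjusted p = 7.7e-07 by edgeR's quasi-likelihood test), a rise of 35.0-fold. AKR1C1, a reductase of steroids and aldehydes, rose from 10.02, 11.2 and 10.2 to 175, 136 and 374 CPM (log2 fold change 4.45, SE 0.38), with the highest value in replicate 3. AKR1C2 (3.07) is a close copy of AKR1C1, and AKR1B10 (2.90) rose from about 1 CPM. The cystine transporter SLC7A11 rose by 2.72, the glutathione synthesis subunit GCLM by 1.88 and the thioredoxin reductase TXNRD1 by 1.00. NQO1, the quinone reductase often used to define NRF2 activity, did not pass the test at 178 ± 4.95 against 197 ± 26.5 CPM (SD, n = 3, log2 fold change 0.15, SE 0.11, adjusted p = 0.266 by edgeR's quasi-likelihood test), nor did OSGIN1. Without untreated replicate 1 or 2 the count was 14 and 0 or 15 and 0, and without N-OmtOspc replicate 3 it was 17 and 2.

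Of 18 genes in the ATF4 and CHOP branch, 14 were higher and 1 lower, with a median of 1.59. CEBPB, a transcription factor that ATF4 dimers induce, measured 79.7, 76.9 and 68.3 CPM untreated and 632, 563 and 1002 CPM treated (log2 fold change 3.29, SE 0.23, adjusted p = 6.25e-06 by edgeR's quasi-likelihood test). CTH, which makes cysteine by transsulphuration, rose from 12.0, 14.6 and 13.8 to 147, 124 and 167 CPM (log2 fold change 3.44, SE 0.15). The untreated and treated values of both genes were far apart. The secreted glycoprotein STC2 rose by 3.65, the lipoprotein receptor VLDLR by 2.48, the pseudokinase TRIB3 by 2.38, the glutathione-degrading CHAC1 by 2.25, DDIT3 (CHOP itself) by 1.63 and ATF4 by 0.83. PSAT1, MTHFD2 and DDIT4 did not pass the test.

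The chaperones of the endoplasmic reticulum (ER) were divided, with 9 of 18 higher and 4 lower and a median of 0.264, which on library totals became 6 higher, 7 lower and -0.0432. HSPA5, the lumenal HSP70, rose from 715, 743 and 706 to 2206, 1993 and 2431 CPM (log2 fold change 1.62, SE 0.12, adjusted p = 8.97e-06 by edgeR's quasi-likelihood test). HERPUD1 of ER-associated degradation rose by 1.48 and the co-chaperone DNAJB11 by 1.13. CRELD2, another ER stress gene, moved the other way, from 25.7, 23.6 and 20.6 to 6.83, 7.00 and 7.59 CPM (log2 fold change -1.70, SE 0.13). HSP90B1, DNAJC3, SDF2L1, PDIA3 and HYOU1 did not pass. Without untreated replicate 2 or 3 the count was 6 higher and 2 lower, and without N-OmtOspc replicate 1 it was 7 and 2.

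Of 6 tested genes on the AHR list, which holds AHR beside its targets, 5 were higher and 0 lower, with a median of 1.12. CYP1A1, the monooxygenase that AHR ligands induce, stood at 1.45, 1.28 and 1.54 CPM untreated and 23.1, 21.3 and 37.0 CPM treated (log2 fold change 4.25, SE 0.26, adjusted p = 4.1e-06 by edgeR's quasi-likelihood test). AHRR, the receptor's repressor, rose by 2.65, the ADP-ribosyltransferase TIPARP by 1.30 and AHR itself by 0.95. Among the 6, ALDH3A1 did not pass the test.

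**Figure D2:**
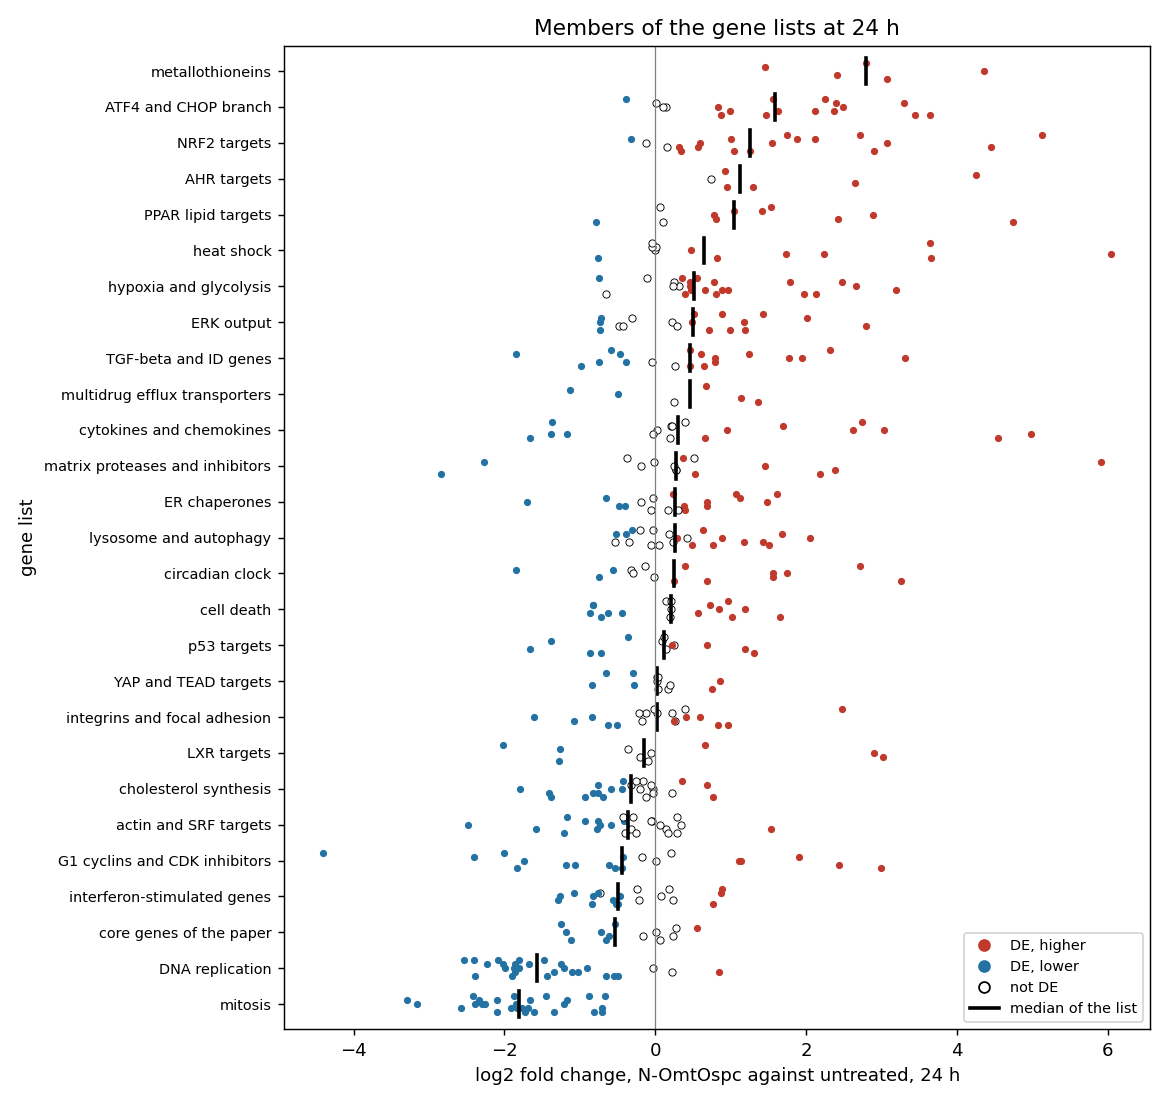
Log2 fold change of N-OmtOspc against untreated at 24 h for the tested members of 27 gene lists, 1 point per gene, red where higher and blue where lower at an adjusted p under 0.05, open where the test was not passed, with a bar at the list's median. All 28 mitotic genes lie below 0 and all 5 genes of the metal list lie above it.

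The division genes were lower almost throughout. All 28 mitotic genes were lower, with a median of -1.8, and 25 of 28 DNA replication genes were lower and 1 higher, with a median of -1.57. CCNB1, cyclin B1 of mitotic entry, measured 319, 307 and 288 CPM untreated and 59.7, 62.7 and 51.4 CPM treated (log2 fold change -2.39, SE 0.11, adjusted p = 1.32e-06 by edgeR's quasi-likelihood test). KIF20A, a kinesin of the central spindle, fell from 123, 126 and 125 to 15.8, 16.1 and 9.90 CPM (log2 fold change -3.16, SE 0.18). CCNB2 and PLK1, of the promoters shown, changed by -2.33 and -2.30. CCNA2 (-2.57), KIF2C (-2.42) and CENPE (-3.29) were of the same order. MKI67, the usual marker of cycling cells, changed less and was uneven among treated libraries, at 241, 255 and 273 CPM untreated and 96.2, 135 and 46.5 CPM treated (log2 fold change -1.47, SE 0.31), with the lowest value in replicate 3. Among replication genes, the polymerase subunit POLA1 fell from 26.2, 28.2 and 31.8 to 5.20, 6.54 and 3.19 CPM (log2 fold change -2.54, SE 0.22) and the helicase subunit MCM6 from 83.7, 89.2 and 87.8 to 18.7, 19.9 and 10.6 CPM (log2 fold change -2.41, SE 0.21). RRM2, which supplies deoxynucleotides, changed by -2.39 and the checkpoint adaptor CLSPN by -2.23. ORC6 and TK1 did not pass the test, and without N-OmtOspc replicate 3 the replication list counted 2 higher and 25 lower.

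The list of G1 cyclins and CDK inhibitors had 5 higher and 11 lower of 19, with a median of -0.439. CDKN1C, the inhibitor p57, rose from 49.8, 47.9 and 42.4 to 335, 329.5 and 446 CPM (log2 fold change 2.99, SE 0.15, adjusted p = 1.78e-06 by edgeR's quasi-likelihood test), and the inhibitor CDKN1A (p21) rose by 1.91. CCND2, cyclin D2, rose from 1.02, 1.20 and 1.24 to 5.99, 6.61 and 6.28 CPM, and the pocket protein RBL2 changed by -2.40. CCNE1, CDK6 and CDKN1B did not pass. p53 targets were split into 4 higher and 5 lower of 13, with a median of 0.122 that became -0.176 on library totals, and 3 and 3 without N-OmtOspc replicate 1. This line is known to carry mutant p53. GADD45A (1.31) and BBC3 (1.19) were higher, while the death receptor FAS (-1.39) and TP53I3 (-1.66) were lower, and MDM2 did not pass.

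Genes of lipid supply moved in different directions. Of 23 cholesterol synthesis and uptake genes, 3 were higher and 11 lower, with a median of -0.323, against 1 higher and 17 lower on library totals. INSIG1, the sterol sensor of the endoplasmic reticulum, measured 212, 217 and 201 CPM untreated and 107, 97.6 and 124 CPM treated (log2 fold change -0.93, SE 0.11, adjusted p = 0.000135 by edgeR's quasi-likelihood test). The mevalonate kinase MVK fell from 77.9, 73.0 and 65.4 to 22.8, 21.8 and 37.7 CPM (log2 fold change -1.39, SE 0.21). The LXR list holds sterol exporters, lipogenic genes and the receptors NR1H2 and NR1H3. It had 3 higher and 3 lower of 10, with a median of -0.15, and 3 higher and 7 lower on library totals. ABCG1, a cholesterol exporter, rose from 6.25, 8.74 and 7.90 to 56.0, 52.0 and 78.1 CPM (log2 fold change 3.02, SE 0.20, adjusted p = 5.4e-06 by edgeR's quasi-likelihood test), and the lipoprotein APOE rose by 2.90. ABCA1, another exporter of this list, fell from 52.9, 59.7 and 62.3 to 19.6, 26.0 and 26.8 CPM (log2 fold change -1.27, SE 0.14), and the lipogenic factor SREBF1 changed by -2.02.

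The list of PPAR targets and receptors had 8 higher and 1 lower of 11, with a median of 1.04. The receptors PPARA (0.78), PPARD (1.04) and PPARG were among the higher genes. The 1 lower call was lost whenever any single library other than N-OmtOspc replicate 3 was left out. PDK4, which slows pyruvate oxidation, rose from 0.485, 1.04 and 1.01 to 23.8, 25.6 and 20.8 CPM (log2 fold change 4.75, SE 0.23, adjusted p = 1.6e-06 by edgeR's quasi-likelihood test). ANGPTL4, an inhibitor of lipoprotein lipase, rose by 2.89, the lipid droplet coat PLIN2 by 2.43 and the receptor PPARG by 1.53. Hypoxia and glycolysis genes were higher for 18 of 24 and lower for 1, with a median of 0.519, which on library totals became 11 higher and 2 lower and without N-OmtOspc replicate 3 became 20 and 2. EGLN3, the prolyl hydroxylase that HIF induces, measured 15.9, 15.1 and 14.6 CPM untreated and 155, 151 and 109 CPM treated (log2 fold change 3.19, SE 0.15). VEGFA, the angiogenic growth factor, rose from 216, 220.4 and 238 to 1140, 1057 and 1561 CPM. NDRG1 rose by 2.66 and the glycolytic regulator PFKFB3 by 2.13, while CA9, another HIF target, did not pass.

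The cytoskeleton and adhesion lists changed less evenly. The study tied whole CKI to the focal adhesion and actin cytoskeleton pathways, and the lists here are not its gene sets. It also reported fewer cell protrusions (lamellipodia) by imaging after CKI. By flow cytometry it found lower beta-actin, beta-catenin, cyclin D1 and AKT protein in this line with CKI. The levels here are RNA under N-OmtOspc and are not the same measure. Of 24 actin and SRF target genes, 1 was higher and 10 lower, with a median of -0.362. This count was 1 and 16 on library totals, 4 and 11 with DESeq2 and 6 and 13 without N-OmtOspc replicate 3. ACTG1, gamma-actin, measured 4628, 4661 and 4403 CPM untreated and 906, 884 and 663 CPM treated (log2 fold change -2.48, SE 0.15, adjusted p = 3.8e-06 by edgeR's quasi-likelihood test). ACTB, beta-actin, fell from 7477, 7535 and 6977 to 2516, 2047 and 2739 CPM (log2 fold change -1.59, SE 0.15). Actin pseudogenes leave the separate values of the actins uncertain. ACTA2 changed by -1.20, and the single member that rose was filamin FLNC (1.53). The YAP and TEAD list, which holds YAP1, WWTR1, TEAD1 and TEAD4 beside targets, counted 2 higher and 4 lower of 12. Its median of 0.0265 changed sign to -0.276 on library totals. The count became 5 higher and 5 lower without replicate 3. It was 2 and 2 without any one of untreated replicates 2 and 3 and N-OmtOspc replicates 1 and 2. The matricellular CTGF changed by -0.66 and tissue factor F3 by -0.84, while the LIM protein AJUBA (0.75) and the kinase LATS2 (0.85) rose.

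Integrins and focal adhesion genes were 6 higher and 5 lower of 19, with a median of 0.0197 that became -0.278 on library totals, where 3 were higher and 10 lower. ITGB8, an integrin that activates latent TGF-beta, rose from 2.58, 3.19 and 3.09 to 13.7, 18.6 and 17.2 CPM (log2 fold change 2.48, SE 0.17, adjusted p = 6.19e-06 by edgeR's quasi-likelihood test). ITGB4, the hemidesmosome integrin, fell from 379, 361 and 394 to 132, 128 and 112 CPM (log2 fold change -1.60, SE 0.10). The scaffold BCAR1 rose by 0.96 and caveolin CAV1 changed by -1.08. Matrix proteases and their inhibitors had 6 higher and 2 lower of 15, with a median of 0.28 that became -0.00355 on library totals, and 6 and 4 without replicate 3. CEMIP, a hyaluronan-degrading protein, fell from 256, 277 and 312 to 43.9, 38.9 and 35.3 CPM (log2 fold change -2.84, SE 0.13), and the urokinase PLAU from 345, 344 and 332 to 61.1, 55.1 and 94.3 CPM (log2 fold change -2.27, SE 0.20). The collagenase MMP13 rose from 0.162, 0.0829 and 0 to 3.33, 2.62 and 8.80 CPM, its untreated values resting on very few reads, and the inhibitor SERPINE2 rose by 2.38.

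TGF-beta and ID genes were 11 higher and 6 lower of 19, with a median of 0.463. ID2, an inhibitor of bHLH factors, rose from 0.646, 1.04 and 0.618 to 6.53, 5.10 and 11.4 CPM (log2 fold change 3.31, SE 0.38, adjusted p = 8.49e-05 by edgeR's quasi-likelihood test), and ID4 rose by 2.32. ID3 of the same family fell from 22.3, 22.7 and 22.8 to 5.75, 4.64 and 8.22 CPM (log2 fold change -1.85, SE 0.19). The SMAD repressor SKIL rose by 1.94. BAMBI, a TGF-beta pseudoreceptor that is not on the list, measured 18.9, 20.3 and 19.2 CPM untreated and 512, 440.1 and 467 CPM treated (log2 fold change 4.61, SE 0.11). Fibroblast markers moved beside these groups, with 3 of 4 tested members higher, a summed level of 28.6 to 32.2 CPM in untreated and 51.7 to 75.1 CPM in N-OmtOspc libraries, and the defining marker DCN too low to test. Endothelial markers summed to 1.28 to 1.66 and 3.07 to 6.28 CPM, with both tested members higher and CDH5 too low to test. Luminal epithelial markers summed to 585 to 699 and 853 to 895 CPM without overlap, with both tested members, KRT19 (0.41) and GATA3 (0.43), higher and ESR1, PGR and FOXA1 too low to test. The part of other cell types in these results was not tested.

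Cytokines and chemokines were 8 higher and 4 lower of 18, with a median of 0.303, and only 2 were lower without any one of untreated replicates 1 and 2 and N-OmtOspc replicates 1 and 2. IL1B, an inflammatory cytokine, stood at 2.75, 1.33 and 2.12 CPM untreated and 52.4, 48.7 and 90.8 CPM treated (log2 fold change 4.98, SE 0.34, adjusted p = 5.93e-06 by edgeR's quasi-likelihood test), and IL1A at 0.323, 0.746 and 1.01 and 13.3, 14.2 and 22.5 CPM (log2 fold change 4.54, SE 0.35). IL24 rose by 3.03 and the receptor IL6R by 2.75, while IL6, IL11, LIF and CSF2 did not pass. CXCL2, a neutrophil chemokine, fell from 6.14, 5.68 and 6.18 to 1.81, 0.981 and 3.93 CPM. Leukocyte markers summed to 11 to 13.8 CPM in untreated and 13.5 to 28.2 CPM in N-OmtOspc libraries, and PTPRC and CD3E were too low to test. Interferon-stimulated genes were 3 higher and 10 lower of 19, with a median of -0.499, as in OAS3 (-1.28), IFI44 (-1.26) and STAT2 (-1.07), against IFI6 (0.88).

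ERK output genes had 10 higher and 3 lower of 18, with a median of 0.498, and 11 and 5 without N-OmtOspc replicate 3. DUSP5, a nuclear ERK phosphatase, rose from 77.6, 82.3 and 74.0 to 586, 564 and 469.8 CPM (log2 fold change 2.79, SE 0.12, adjusted p = 1.15e-06 by edgeR's quasi-likelihood test), the early response gene IER3 by 2.01, JUN by 1.44 and DUSP4 by 1.19. FOS and MYC did not pass. Cell death genes were 7 higher and 6 lower of 17, with a median of 0.203 that became -0.101 on library totals, and 11 and 6 without replicate 3. The pore-forming BAK1 rose from 117, 121 and 110.1 to 415, 379 and 302 CPM (log2 fold change 1.66, SE 0.13), and the BH3 proteins BBC3 and BCL2L11 rose by 1.19 and 1.02. Lysosome and autophagy genes were 10 higher and 3 lower of 22, with a median of 0.256, against 6 and 6 and -0.0335 on library totals, 10 and 9 without replicate 3 and 9 and 0 without replicate 1. The autophagy receptor SQSTM1 rose from 588, 593 and 562 to 1742, 1644 and 2162 CPM, GABARAPL1 by 2.05, MAP1LC3B by 1.51 and the calcium channel MCOLN1 by 1.43.

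Of 6 multidrug efflux transporters tested, 3 were higher and 2 lower, with a median of 0.457, and 4 and 1 without untreated replicate 3. ABCG2 rose from 7.92, 8.41 and 8.60 to 19.2, 20.01 and 24.9 CPM (log2 fold change 1.37, SE 0.14, adjusted p = 4.56e-05 by edgeR's quasi-likelihood test), ABCC2 by 1.14 and ABCC5 by 0.67, and ABCC4 changed by -1.13. ABCB1, the P-glycoprotein gene, was too low to test. Circadian clock genes were 8 higher and 3 lower of 15, with a median of 0.251 that became -0.0491 on library totals. ARNTL, the activator BMAL1, rose from 6.19, 6.26 and 5.87 to 61.8, 54.9 and 57.9 CPM (log2 fold change 3.25, SE 0.11), and its repressor NR1D1 from 10.2, 9.82 and 10.1 to 62.2, 52.2 and 82.3 CPM. The output factor DBP rose by 1.75, while PER3 changed by -1.85 and PER2 and CLOCK did not pass.

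The study named 14 core genes, among them cell cycle and signalling genes, that several of its gene sets had in common. They were chosen on samples of this series, so they are not independent evidence of a direction. Of 13 tested members 1 was higher and 7 lower, with a median of -0.531, and without N-OmtOspc replicate 3 the counts were 5 and 7, against 0 and 8 on library totals. CTNNB1, beta-catenin, measured 394, 409.9 and 418 CPM untreated and 455, 533 and 247 CPM treated, and the treated values lay on both sides of the untreated ones (log2 fold change 0.015, SE 0.24, adjusted p = 0.959 by edgeR's quasi-likelihood test, 95% interval -0.53 to 0.56). CCND1, cyclin D1, measured 732, 734 and 776 CPM and 542, 633 and 375 CPM (log2 fold change -0.53, SE 0.17, adjusted p = 0.0242 by edgeR's quasi-likelihood test), and was not DE in 4 of the 6 fits that left out 1 library. The kinases AKT1 (-0.65) and CDK4 (-0.62), the retinoblastoma gene RB1 (-1.18) and the cadherin CDH1 (-1.12) were lower. APC, of the beta-catenin destruction complex, was higher with 30.9, 29.4 and 19.6 CPM against 15.5, 18.3 and 20.3 CPM (log2 fold change 0.56, SE 0.18), overlapped between groups and was not DE in 4 of those fits. AKT2, PIK3CA and JAK2 did not pass, and ESR1 was too low to test.

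Whole CKI at the same dose and time shows which of these levels differ between the depleted mixture and CKI. Whether the preparations differed in anything beyond the alkaloids removed was not tested. Against CKI, N-OmtOspc had much higher HSPA6, HMOX1, MT1X and ABCG1 and lower CYP1A1, ANGPTL4 and INSIG1. Of 14315 genes tested, 7724 were DE (54%), 3793 higher (26.5%) and 3931 lower (27.5%) in N-OmtOspc, and 3982 of them by at least 2-fold (27.8%). On library totals the split was 2331 higher and 5872 lower, the median gene standing at -0.354. CKI replicate 1 lay apart from the other CKI libraries, and without it 7940 genes were DE. HBA1, a globin gene with the near-identical copy HBA2, read 0.524, 43.5 and 41.3 CPM in the 3 CKI libraries, 37.9, 38.7 and 53.2 CPM in untreated and 107, 108 and 51.8 CPM in N-OmtOspc libraries. HBA1 was near 0 also in replicate 2 of N-MacOmtOspc and replicate 2 of OmtOspc, the libraries that, with CKI replicate 1, followed genes differing between the batches. The part of this in the results was not tested, and list counts against CKI are given also without CKI replicate 1 where they moved.

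Heat shock genes were higher than with CKI for 8 of 12 and lower for none, with a median of 0.881, 9 were higher without CKI replicate 1, and on library totals 6 were higher and 2 lower. HSPA6 measured 4.28, 0.327 and 0.623 CPM with CKI and 81.0, 65.6 and 132 CPM with N-OmtOspc (log2 fold change 5.71, SE 0.76, adjusted p = 0.000413 by edgeR's quasi-likelihood test). HSPA1A measured 557, 309 and 312 CPM with CKI (log2 fold change 3.22, SE 0.26). In both genes CKI replicate 1 was the highest CKI library and lay above every untreated library. The other CKI libraries lay below every untreated library for HSPA6 and slightly above them for HSPA1A. The metal list had 4 of 5 higher, with a median of 2.66, and 5 of 6 without CKI replicate 1. MT1X stood at 67.4, 52.2 and 61.3 CPM with CKI (log2 fold change 3.49, SE 0.16), and SLC30A1 at 28.4, 30.2 and 25.8 CPM (log2 fold change 2.68, SE 0.13). The ATF4 and CHOP branch had 12 of 18 higher and none lower, with a median of 1.25, and 13 higher without that library.

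NRF2 targets were split, 6 higher and 5 lower of 19, with a median of -0.032, and were 6 and 6 without CKI replicate 1 and 4 and 9 on library totals. HMOX1 stood at 50.05, 42.5 and 48.5 CPM with CKI, below every N-OmtOspc library (log2 fold change 4.07, SE 0.17, adjusted p = 1.59e-05 by edgeR's quasi-likelihood test). NQO1 was lower in N-OmtOspc (log2 fold change -0.86, SE 0.14), and so was AKR1B10 (log2 fold change -1.10, SE 0.31). The AHR list had 2 higher and 3 lower of 6, with a median of -0.889, and 1 was higher on library totals and without N-OmtOspc replicate 3. CYP1A1 measured 49.8, 84.3 and 81.0 CPM with CKI, above every N-OmtOspc library (log2 fold change -1.40, SE 0.27). AHR itself measured 103, 81.1 and 75.8 CPM with CKI and was higher with N-OmtOspc (log2 fold change 1.14, SE 0.17).

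Of 23 cholesterol genes none was higher and 18 lower than with CKI, with a median of -0.723, and 19 were lower without CKI replicate 1. INSIG1 stood at 180.0, 223 and 224 CPM with CKI, above every N-OmtOspc library (log2 fold change -0.93, SE 0.15, adjusted p = 0.00112 by edgeR's quasi-likelihood test). MVK was also lower than with CKI (log2 fold change -1.21, SE 0.30). The LXR list had 5 higher and 1 lower of 10, with a median of 0.646, and 5 and 2 without CKI replicate 1, and 5 and 3 on library totals and without N-OmtOspc replicate 3. ABCG1 measured 0.393, 1.84 and 1.82 CPM with CKI, below the untreated libraries, whereas N-OmtOspc lay above them (log2 fold change 5.52, SE 0.44). ABCA1 was at 5.42, 5.79 and 6.13 CPM with CKI, so that N-OmtOspc lay between CKI and untreated cells (log2 fold change 2.06, SE 0.18). The list of PPAR targets and receptors had 5 higher and 4 lower of 11, with a median of 0.465, and 5 and 3 without CKI replicate 1. ANGPTL4 was lower, with 48.6, 121 and 133 CPM under CKI (log2 fold change -2.18, SE 0.47).

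Mitotic genes were lower than with CKI for 18 of 28 and higher for 2, with a median of -0.665, and DNA replication genes for 14 of 28 and higher for 3, with a median of -0.654. Without CKI replicate 1 both lists counted 18 lower and 2 higher, and without N-OmtOspc replicate 3 the mitotic list counted 17 and 5. CCNB1 measured 108, 96.7 and 104 CPM with CKI (log2 fold change -0.83, SE 0.13, adjusted p = 0.000903 by edgeR's quasi-likelihood test), between the untreated and the N-OmtOspc libraries. CCNE2 at 9.91, 12.2 and 11.3 CPM (log2 fold change -3.38, SE 0.38) and CDCA7 at 5.81, 8.37 and 5.66 CPM (log2 fold change -3.18, SE 0.31) were placed in the same way. CDKN1C went in opposite directions from untreated, at 10.3, 17.3 and 19.8 CPM with CKI and 335, 329.5 and 446 CPM with N-OmtOspc (log2 fold change 4.55, SE 0.27). With genes averaging under 10 CPM set aside, and those not DE without CKI replicate 1, the 6 with the largest excess over CKI were PRSS35 (4.85), ARC (5.85), HSPA6, ABCG1, RPPH1 (5.39) and SLC6A12 (4.96). The 6 with the largest deficit by the same rule included TCAF2 (-3.08), LMLN (-3.05), the Wnt receptor FZD6 (-2.98), TTC31 (-2.89) and PARP4 (-2.84). For TCAF2 the CKI libraries read 23.5, 18.2 and 17.8 CPM, the untreated ones 3.02, 3.94 and 3.27 CPM and the N-OmtOspc libraries 2.66, 1.83 and 2.51 CPM.

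The other lists set against CKI gave mixed shares, several of which turned with the scaling. TGF-beta and ID genes were 11 higher and 3 lower of 19, with a median of 0.698, and 12 and 3 without CKI replicate 1. Hypoxia and glycolysis genes were 13 higher and 8 lower of 24, but 9 and 7 without CKI replicate 1 and 7 and 10 on library totals. Interferon-stimulated genes were 9 higher and 4 lower of 19, 7 and 4 without CKI replicate 1 and 5 and 4 on library totals. Clock genes were 7 and 3 of 15, 6 and 4 without CKI replicate 1 and 4 and 5 on library totals. Cytokines were 6 higher and 2 lower of 17, but 8 and 1 without CKI replicate 1, 6 and 5 without N-OmtOspc replicate 3 and 4 and 4 on library totals. ER chaperones were 5 higher and 6 lower of 18, 6 and 6 without CKI replicate 1 and 3 and 10 on library totals. Actin and SRF targets were 6 higher and 4 lower of 24, but 6 and 5 without CKI replicate 1 and 3 and 10 on library totals. Integrins were 3 and 7 of 19, 3 and 8 without CKI replicate 1 and 1 and 11 on library totals. Core genes were 1 higher and 4 lower of 13, 2 and 4 without CKI replicate 1 and 4 and 4 without N-OmtOspc replicate 3. CDH1, of the epithelial junction, was the core gene higher than with CKI, at 3.33, 1.44 and 2.98 CPM against 0.0873, 0.612 and 0.415 CPM (log2 fold change 2.77, SE 0.57). CEMIP did not differ from CKI by the test (log2 fold change 0.013, SE 0.42, 95% interval -0.94 to 0.97).

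**Figure D3:**
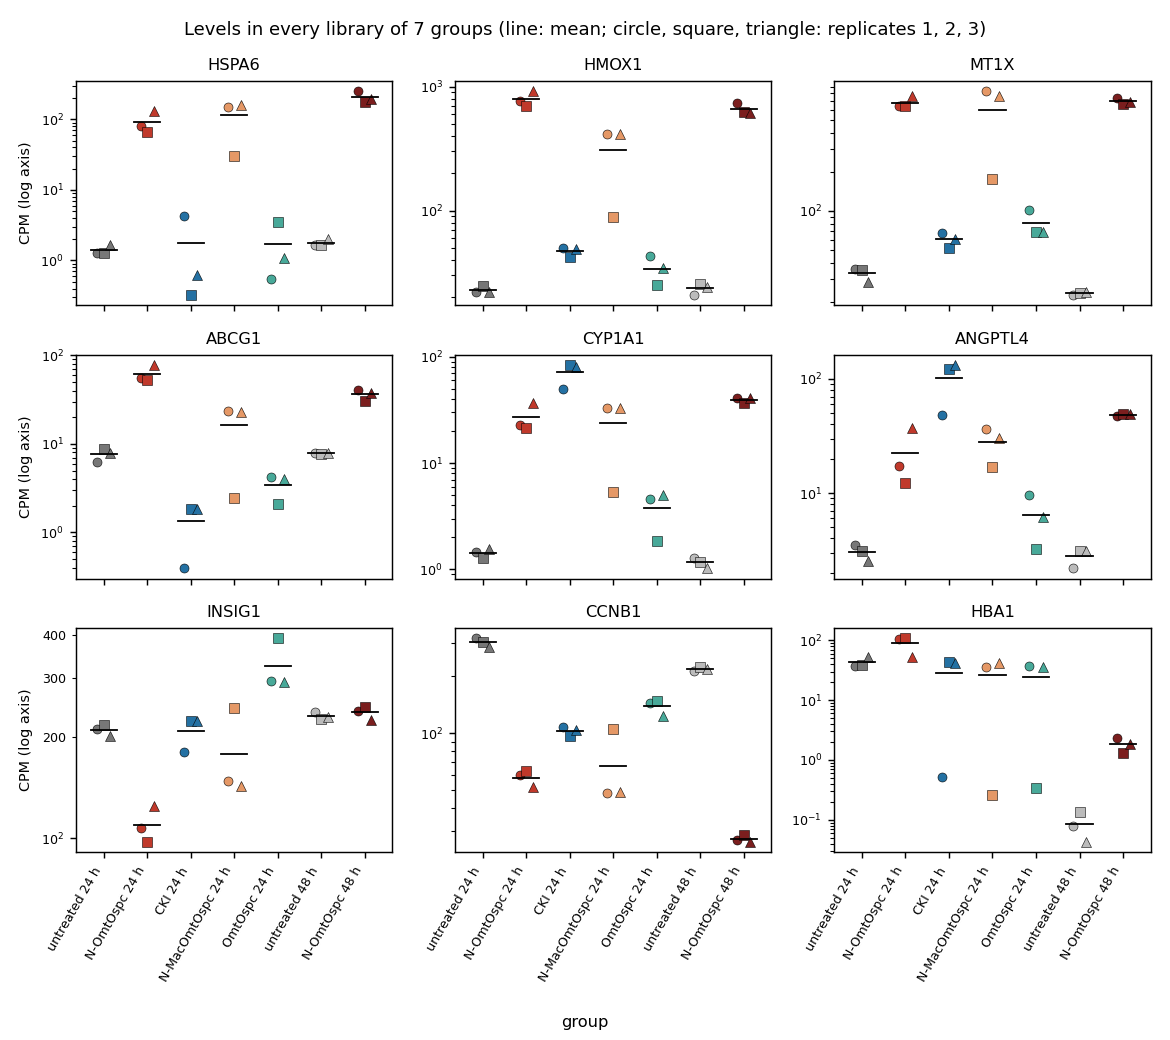
CPM on a log axis of HSPA6, HMOX1, MT1X, ABCG1, CYP1A1, ANGPTL4, INSIG1, CCNB1 and HBA1 in the 7 groups used here, 1 point per library, from untreated to N-OmtOspc at 24 h and 48 h. N-OmtOspc libraries lie above untreated and CKI libraries for HSPA6, HMOX1, MT1X and ABCG1 and below the CKI libraries for CYP1A1 and ANGPTL4, and HBA1 is near 0 in 1 library each of CKI, N-MacOmtOspc and OmtOspc.

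Removing macrozamin as well gave N-MacOmtOspc, and 5329 of 14507 genes tested differed from N-OmtOspc (36.7%), 2699 higher (18.6%) and 2630 lower (18.1%) in N-MacOmtOspc, and 2433 by at least 2-fold (16.8%). This count depended on single libraries, from 2561 without N-OmtOspc replicate 1 to 5990 without N-MacOmtOspc replicate 2, and on library totals 4508 were higher and 1491 lower. Leading N-OmtOspc genes were among those that were lower without macrozamin. PRSS35 measured 9.16, 2.17 and 8.51 CPM in N-MacOmtOspc against 66.7, 61.2 and 68.4 CPM (log2 fold change -3.28, SE 0.45, adjusted p = 0.00225 by edgeR's quasi-likelihood test), and BAMBI 64.3, 20.4 and 57.3 CPM against 512, 440.1 and 467 CPM (log2 fold change -3.30, SE 0.39). RPPH1 (-4.06), the somatostatin receptor SSTR2 (-3.86) and C7orf61 (-3.48) were also among the 6 largest deficits of genes averaging 10 CPM or more and DE also without N-MacOmtOspc replicate 2. By the same rule, genes higher without macrozamin included CXCL2 (3.65), IL24 (3.52), SCG5 (3.44), TMEM154 (3.19) and PABPC1L (2.46).

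HSPA6 read 152, 29.9 and 162 CPM in N-MacOmtOspc and did not pass the test against N-OmtOspc (log2 fold change 0.33, SE 0.55, adjusted p = 0.664 by edgeR's quasi-likelihood test, 95% interval -0.94 to 1.60). MT1X (log2 fold change -0.18, SE 0.48, 95% interval -1.28 to 0.93) did not pass either. Nor did HMOX1 after adjustment (log2 fold change -1.35, SE 0.50, 95% interval -2.50 to -0.21), though its interval, which is not adjusted, lay below 0. All of these intervals are wide. Of the 6 tested members of the metal list, SLC30A1 alone differed (log2 fold change -1.24, SE 0.37). That call was lost on library totals and without N-OmtOspc replicate 1 or 3, where no member was DE, and without N-MacOmtOspc replicate 2 the list counted 2 higher and 1 lower. Cytokines were higher for 10 of 17 and lower for 0, with a median of 1.42, and 8 were higher without N-OmtOspc replicate 1. Cholesterol genes were higher for 10 of 23 and lower for 0, with a median of 0.559, but 2 were higher without N-OmtOspc replicate 1 and 15 on library totals. ER chaperones were higher for 8 of 18 and lower for 0, with a median of 0.53, against 4 without N-OmtOspc replicate 1 and 15 on library totals. TGF-beta and ID genes were higher for 1 of 19 and lower for 8, with a median of -0.761, against 0 and 5 without N-OmtOspc replicate 1, 2 and 8 without N-MacOmtOspc replicate 2 and 3 and 6 on library totals. Mitotic genes were lower for 4 of 28 and higher for 0, with a median of -0.349, but lower for 21 without N-MacOmtOspc replicate 2 and for 1 on library totals.

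The same mixture at 48 h, set against its own untreated libraries, gave 12011 DE genes of 14932 (80.4%), 5981 higher (40.1%) and 6030 lower (40.4%). A change of at least 2-fold was reached by 5015 of them (33.6%), against a share of 33.5% at 24 h. The spread between replicates was smaller at 48 h, with a coefficient of variation estimated by edgeR of 0.0598 against 0.144 at 24 h. Counts of DE genes at the 48 h and 24 h times are therefore not directly comparable. Of 14271 genes tested at both times, 8216 were DE at both and 7584 of these had the same direction. Across these genes, which are not independent replicates, the log2 fold changes correlated with Pearson's r = 0.811. The test of the time difference itself called 6258 of 15257 genes (41%), 2756 with a higher (18.1%) and 3502 with a lower (23%) fold change at 48 h, and 2052 by at least 2-fold (13.4%). On library totals that split was 5397 and 1603, and without N-OmtOspc 24 h replicate 3 the count was 8628.

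HSPA6, HMOX1 and the metal and AHR lists were higher at 48 h as well. HSPA6 measured 1.64, 1.67 and 2.00 CPM in untreated and 251, 178 and 197 CPM in N-OmtOspc libraries at 48 h (log2 fold change 6.89, SE 0.14, adjusted p = 2.49e-21 by edgeR's quasi-likelihood test), and HMOX1 20.9, 25.4 and 24.2 and 739, 626 and 607 CPM (log2 fold change 4.82, SE 0.088). HSPH1, by contrast, was higher at 48 h by 0.93, less than at 24 h (time difference -1.30, SE 0.17). The metal list was higher for all 6 tested members at 48 h, with a median of 3.76, and 4 of 6 had a larger fold change than at 24 h, or 6 of 6 without N-OmtOspc 24 h replicate 3. The AHR list was higher for 6 of 6 (median 1.77). NRF2 targets were higher for 14 of 19 and lower for 4 (median 0.845), and the ATF4 and CHOP branch for 16 of 18 and lower for 2 (median 2.01). Mitotic genes were lower for 28 of 28 (median -2.44), and DNA replication genes for 26 of 28 and higher for 1 (median -2.08). MKI67 stood at 11.1, 8.66 and 9.53 CPM at 48 h against 285, 254 and 241 CPM untreated, a difference between times of -3.25 (SE 0.37).

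Several groups that were higher or lower at 24 h stood differently at 48 h. Cholesterol genes were 13 higher and 4 lower of 23 (median 0.195), and 18 had a higher and 2 a lower fold change than at 24 h, or 19 and 0 on library totals. INSIG1 measured 237, 227 and 228 CPM untreated and 239, 245 and 225 CPM with N-OmtOspc at 48 h and did not pass the test there (log2 fold change 0.045, SE 0.059, adjusted p = 0.484 by edgeR's quasi-likelihood test), a time difference of 0.99 (SE 0.12). ER chaperones were 5 higher and 12 lower of 18 (median -0.59), with 13 lower and 0 higher at 48 h than at 24 h by the time test, or 9 and 2 on library totals. HSPA5 was changed by 1.62 at the earlier time and by 0.28 at the later one. Hypoxia and glycolysis genes were 11 higher and 11 lower of 24 (median -0.0956), and 17 of 24 had a lower and 1 a higher fold change than at 24 h, or 12 and 2 on library totals. EGLN3 measured 22.9, 25.8 and 22.8 CPM untreated and 28.0, 26.6 and 28.4 CPM treated at 48 h (log2 fold change 0.23, SE 0.078). Cytokines were 14 higher and 2 lower of 18 (median 1.7). By the time test 9 of 19 had a higher and 2 a lower fold change, or 10 and 1 on library totals. Actin and SRF targets were 2 higher and 19 lower of 24 (median -0.757). By the time test 1 of 25 had a higher and 13 a lower fold change, or 3 and 8 on library totals.

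Core genes were 0 higher and 11 lower of 13 at 48 h, with a median of -0.718. CTNNB1, which had not passed at 24 h, stood at 436, 405 and 389 CPM untreated and 187, 179 and 182 CPM treated (log2 fold change -1.16, SE 0.061, adjusted p = 4.82e-14 by edgeR's quasi-likelihood test). CCND1 changed by -1.77 and AKT1 by -1.76. CAV1, the caveolin of the adhesion list, fell from 692, 679 and 651 to 84.5, 73.8 and 74.4 CPM (log2 fold change -3.11, SE 0.067), with a time difference of -2.02. Of the genes with the largest time differences at a mean of at least 10 CPM, GADD45G (2.71) and S100P (2.36) rose further, and SSTR2 (-3.30) and DNPH1 (-3.04) stood lower at 48 h. SSTR2 was at 4.85, 6.92 and 6.79 CPM untreated and 76.6, 79.8 and 42.8 CPM with N-OmtOspc at 24 h, but at 7.34, 8.49 and 8.31 and 9.69, 7.05 and 9.11 CPM at 48 h.

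**Figure D4:**
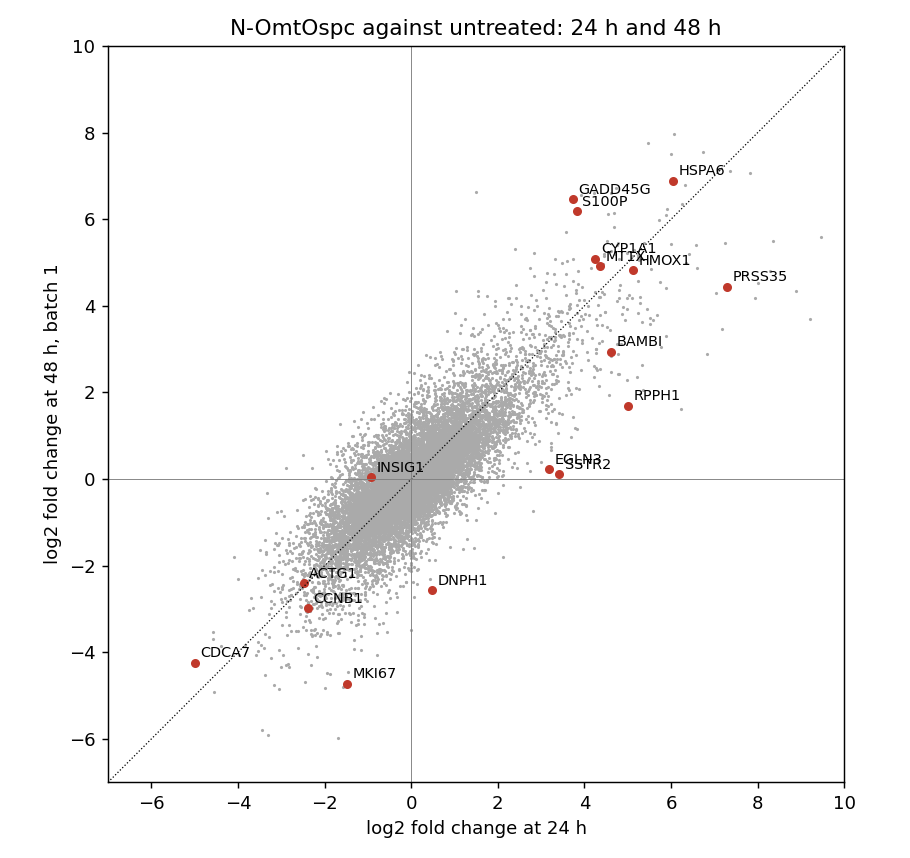
Log2 fold change of N-OmtOspc against untreated at 24 h on the x axis and at 48 h on the y axis for the genes tested at both times, with the named genes of the text among those labelled. HMOX1 and HSPA6 lie in the upper right, CDCA7 and MKI67 in the lower left, and EGLN3 lies near 0 on the 48 h axis.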

How the data were processed

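Strand-specific RNA-seq of poly(A) RNA gave 1 table of whole-number read counts per gene symbol, deposited by the authors and holding all 54 libraries. The submitters' processing notes name FastQC 0.11.4, Trim Galore 0.3.7, STAR 2.5.3a, Subread 1.5.2 with featureCounts, edgeR 3.22.3 and build hg19. Whether the counting used strand is not given in the sources used here, so a gene and an antisense partner may share reads.

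Libraries were grouped by treatment, time and batch labels, with all 3 replicates of a group kept. Genes were filtered with filterByExpr and tested with edgeR 4.0.16 (R 4.3.3), using TMM scaling, the quasi-likelihood F test and Benjamini-Hochberg adjustment over all genes tested, with the libraries of the groups compared alone. Standard errors were derived from the F statistic. CPM values share 1 TMM scaling over the 21 libraries of 7 groups. The time difference was the interaction of treatment and time over 12 libraries. The script was tested on simulated counts in which 200 genes were changed, as many up as down. That setting has far fewer changes than these data and does not test the scaling. Alternatives were DESeq2 1.42.0, RLE size factors, library totals alone, other filters, 1 fit of all libraries, a replicate block and leaving out each library.

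The named genes are the 12 largest rises and 12 largest falls (mean of at least 10 CPM, groups not overlapping), up to 4 called members per list, with defining members that were not called, the study's core genes and ACTB, the 6 largest differences in each direction from CKI and from N-MacOmtOspc, DE also without CKI replicate 1 or N-MacOmtOspc replicate 2, and the 4 largest time differences in each direction, all at a mean of at least 10 CPM in the libraries compared. Other genes were named after their values were seen, and some genes that this rule names are not reported here. The comparison and the lists were chosen with earlier results of these data known. Promoters came from a RefSeq table for GRCh38.p14.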

Additional observations from a re-analysis of the deposited data

Results flagged for a closer look

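The effect of N-OmtOspc differed between 48 and 24 h for 6258 genes by the interaction test in edgeR. Among the genes with the largest changes at 24 h, the log2 fold change was lower at 48 h for PRSS35 (-2.84), RPPH1 (-3.31), C7orf61 (-2.67), C11orf86 (-1.88), NYAP1 (-1.56) and SLC6A12 (-1.21), and the falls of LGALS12 (-2.35) and FAM111B (-2.59) were deeper, while those of SORBS2 (0.73) and UTP20 (0.97) were shallower. Among stress and signalling genes the fold change was lower at 48 h for HSPA5 (-1.32), HSPH1 (-1.30), EGLN3 (-2.95), NDRG1 (-1.78), BAMBI (-1.66), SSTR2 (-3.30) and DNPH1 (-3.04), and higher for MT1X (0.56), INSIG1 (0.99), GADD45G (2.71) and S100P (2.36). The division genes MKI67 (-3.25), RRM2 (-1.64) and KIF20A (-1.57) and the signalling and adhesion genes AKT1 (-1.10), CCND1 (-1.24), CTNNB1 (-1.16) and CAV1 (-2.02) stood lower at 48 h than at 24 h. A further 57 of the 146 named genes also differed between the times.

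HBA1 (3.31) and its near-identical copy HBA2 (2.81) had a higher log2 fold change at 48 h. HBA1 measured 37.9, 38.7 and 53.2 CPM in untreated and 107, 108 and 51.8 CPM in N-OmtOspc libraries at 24 h, and 0.0781, 0.135 and 0.0426 and 2.30, 1.29 and 1.85 CPM at 48 h, so the 48 h fold change rests on untreated values at or near 0. The cause of these levels was not tested.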

How the results depend on the processing

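The limits are the spread among 3 libraries per group and the scaling. Of the 146 named genes, all kept their direction and side of the threshold at 24 h with DESeq2, RLE size factors and the filter at a mean of 1 CPM, and 138 did so on library totals alone. Counts of DE genes with a change of at least 2-fold were 4814 against untreated at 24 h, 3982 against CKI, 5015 at 48 h, 2052 for the time difference and 2433 for N-MacOmtOspc against N-OmtOspc. Leaving out 1 library gave 8470 to 11060 DE genes for N-OmtOspc against untreated at 24 h, 6060 to 8179 against CKI, 11664 to 12037 at 48 h, 5158 to 8628 for the time difference and 2561 to 5990 for N-MacOmtOspc, where the counts were 3365 without N-OmtOspc replicate 2 and 3261 without N-MacOmtOspc replicate 3, and 9592 with all 54 libraries in 1 fit. The cause of these moves was not tested.

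The share of higher calls moved with library totals from 49.4 to 34.4% against untreated at 24 h, from 49.1 to 28.4% against CKI, from 44 to 77.1% for the time difference and from 50.6 to 75.1% for N-MacOmtOspc. The genes that changed sign were not DE. CTNNB1 was at -0.30 on library totals, -0.025 with no filter and -0.051 with the replicate block, and at -0.19 to 0.30 without single libraries. On library totals JAK2 was at -0.034, PIK3CA at -0.24 and SCG5 at -0.22. Without single libraries PIK3CA ranged from -0.025 to 0.24 and SCG5 from -0.22 to 0.28. With the replicate number as a block, 9122 genes were DE against untreated at 24 h, 7558 against CKI, 11920 at 48 h, 6050 for the time difference and 6339 for N-MacOmtOspc. Deviations of same-numbered libraries correlated at -0.0438, 0.0156 and -0.131 against untreated at 24 h and at -0.00963, -0.155 and 0.165 against CKI. For N-MacOmtOspc the values were -0.189, 0.463 and 0.34, positive for replicates 2 and 3. These values do not settle whether the numbers pair the samples, and the main fits had no block.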

Other observations

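Further gene families were described after their values were seen, with no test over the family. Osmolyte genes, which cells raise in hypertonic medium, were higher for 5 of 5 members at 24 h, with a median of 2.83. SLC5A3, the myo-inositol transporter, measured 49.6, 55.3 and 60.4 CPM in untreated and 501, 574 and 471 CPM in N-OmtOspc libraries (log2 fold change 3.23, SE 0.13, adjusted p = 1.06e-06 by edgeR's quasi-likelihood test). AKR1B1, which makes sorbitol, rose by 2.83, the taurine transporter SLC6A6 by 1.64 and their regulator NFAT5 by 0.49. Against CKI 3 of the 5 were higher and 0 lower, and at 48 h 4 were higher and 0 lower.

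Clustered protocadherins, adhesion proteins of neural identity, were lower for 15 of 18 tested members and higher for 0, with a median of -1.43. They were lower than with CKI for 9 of 14, or 7 without CKI replicate 1, and lower for 17 and higher for 1 of 20 at 48 h. Genes of cytosolic ribosomal proteins were higher for 62 of 76 and lower for 1 at 24 h, with a median of 0.572, but for 28 and 2 on library totals and for 34 and 0 without untreated replicate 3, and many have pseudogenes that could share their reads. They were higher than with CKI for 74 of 76, while at 48 h 9 were higher and 41 lower. Mitochondrial ribosomal protein genes were lower for 43 of 78 and higher for 10, with a median of -0.356, and for 54 and 6 on library totals.

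Among structural noncoding RNAs, 5 of 6 were higher. RNR1 (3.79), RNR2 (3.69), RMRP (3.58), RPPH1 (5.01) and MALAT1 (2.87) rose and NEAT1 fell (-0.64). MALAT1 measured 42.6, 85.6 and 11.5 CPM in the 3 N-OmtOspc libraries against 5.82, 4.89 and 8.29 CPM in untreated ones, and replicate 3 was the lowest of the treated libraries for RNR1, RNR2, RPPH1 and MALAT1. The cause of these levels was not tested.

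N-OmtOspc replicate 3 differed from the other two replicates in genes on both sides of the change. AXL, a receptor tyrosine kinase of this line, measured 1053, 1288 and 427 CPM, replicate 3 being the lowest. NUPR1, a stress gene of the ATF4 list, measured 22.9, 17.1 and 73.5 CPM, with replicate 3 the highest. At 48 h the N-OmtOspc means were 268 and 155 CPM for AXL and NUPR1, on the side of replicate 3 in each case. These genes are examples, and others were placed differently. FOS measured 25.04, 19.23 and 71.37 CPM, and its 48 h mean of 41.11 CPM lay between these values. SOD3 measured 28.55, 14.13 and 120 CPM, with means of 91.26 CPM in untreated cells at 24 h and 80.13 CPM with N-OmtOspc at 48 h. For SOD3, replicate 3 was thus also on the untreated side.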
